A study of Mus musculus with 12 samples.

Results

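Cx3cr1, P2ry12, Med12l and Cnp are 4 of the 1247 genes with YTHDF1 CLIP peaks in at least 1 of the deposited tables of mouse striatum. They were chosen by symbol: Cx3cr1 and P2ry12 as markers of microglia, Cnp as a marker of oligodendrocytes, and Med12l because P2ry12 lies inside it. Cx3cr1 was in the cocaine table alone, and the other 3 were in both tables. YTHDF1 CLIP-seq crosslinks RNA to its bound protein with ultraviolet light and sequences the RNA that an anti-YTHDF1 antibody precipitates. The groups used here are 3 CLIP libraries from wild-type C57BL/6J mice given cocaine and 3 CLIP libraries from wild-type C57BL/6J mice given saline. The 6 input libraries were left out, so peaks are not set against the abundance of each RNA. Libraries are numbered by the order of their columns, which carry no replicate number, and the labels do not say that they came from separate animals, so every p-value measures only the spread between these libraries, which may be technical. The labels name no dose, time, sex or age.

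Microglia are the resident macrophages of the brain, and oligodendrocytes wrap axons in myelin. Microglia sense neurons and damage through surface receptors: CX3CR1 binds fractalkine, a chemokine displayed by neurons, and P2RY12 binds ADP released by active or injured cells and steers microglial processes towards it. CNP is a cyclic nucleotide phosphodiesterase of the cytoplasmic channels of myelin, and MED12L is a paralogue of MED12, a subunit of the kinase module of the Mediator complex, which links transcription factors to RNA polymerase II. YTHDF1 binds N6-methyladenosine (m6A), a methyl mark on adenosine that is placed mostly within short consensus sequences such as GGACT in the DNA sense strand.

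The cell type label is striatal neurons, but the tissue was lysed whole, and the marker genes were listed as follows. Of 17 markers of striatal neurons, Chat was in the cocaine table alone and Gad1 in the saline table alone, and the others were in neither. Of 24 microglia markers, 3 were listed (12.5%), which were Cx3cr1, P2ry12 and Itgam, the last in saline alone with 2 peaks in each library. Of 24 oligodendrocyte and myelin genes, Cnp was the 1 listed (4.17%), and Mbp, Mog and Mag were in neither table. Over all 21900 protein-coding genes 3.36% were listed in either table, 2.6% in cocaine and 1.35% in saline. Because Cx3cr1, P2ry12 and Cnp were chosen from such lists for being listed, these counts are descriptions. None of 10 astrocyte markers and 2 of 8 endothelial and pericyte markers were listed. Absence from a table does not mean absence of peaks, since each table has a cutoff, and peaks per gene are not expression levels. In tissue lysed whole, fewer cells of a type and less RNA per cell cannot be told apart.

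P2ry12 and P2ry14, both nested in Med12l, lie on the strand opposite to it. Coordinates come from RefSeq on GRCm38.p6 (mm10), and strands from the RefSeq table of gene starts. Med12l lies on the plus strand of chromosome 3 from 59005419 to 59318446, a span of 313.0 kb. P2ry12 lies on the minus strand from 59216271 to 59262985, wholly within Med12l and covering 14.9% of it. P2ry14, the gene of a receptor for UDP-sugars, also lies within Med12l on the minus strand, from 59114623 to 59153492, and covers 12.4% of it. P2ry12 and P2ry14 were listed in both tables, and P2ry13 and Gpr171, which also lie inside Med12l, were in neither under their symbols. Igsf10, which overlaps the far end of Med12l, was also in neither. Cnp lies on the plus strand of chromosome 11 from 100574909 to 100591875, and its last 9058 bases, 53.4% of its span, overlap the end of Dnajc7, a co-chaperone gene on the minus strand. Cx3cr1 lies on the minus strand of chromosome 9 from 120048683 to 120068296, and the plus-strand non-coding Gm33858 covers 25.7% of it. Neither Dnajc7 nor Gm33858 was in either table under its symbol. The tables give no position or strand of a peak, so the overlapping genes cannot be separated peak by peak.

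**Figure D1:**
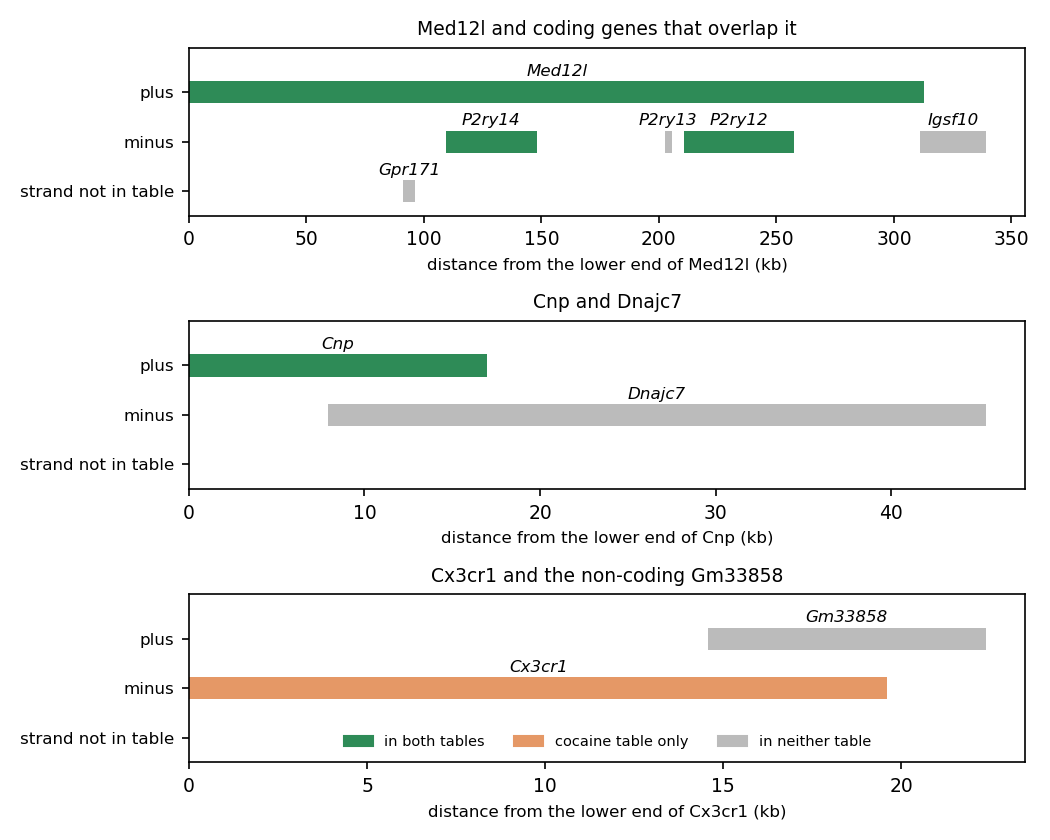
Maps to scale of the 3 loci, with distance in kb from the lower end of Med12l, Cnp and Cx3cr1 on the horizontal axis and strand on the vertical axis; bars are annotated gene spans, coloured by the tables that list them. P2ry12 and P2ry14 lie on the minus strand within the plus-strand Med12l, and Dnajc7 and Gm33858, which overlap Cnp and Cx3cr1 on the opposite strand, are in neither table.

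The starts of the 4 genes are shown because they give the strand of each gene and, for P2ry12, the point inside Med12l at which its annotated span begins. Each window runs 5′ to 3′ on the gene's own strand from 250 bases before to 50 bases after 1 start given in the RefSeq table of gene starts (GRCm38.p6). That start is the outer end of the span for P2ry12 and Cx3cr1, and lies 30 bases inside it for Cnp and 1559 bases inside it for Med12l, whose whole window is within its span. The windows are chr3:59262936-59263235 (minus) for P2ry12, chr3:59006728-59007027 (plus) for Med12l, chr9:120068247-120068546 (minus) for Cx3cr1 and chr11:100574689-100574988 (plus) for Cnp. Capitals mark GGACT, or AGTCC where it lies on the other strand.
P2ry12: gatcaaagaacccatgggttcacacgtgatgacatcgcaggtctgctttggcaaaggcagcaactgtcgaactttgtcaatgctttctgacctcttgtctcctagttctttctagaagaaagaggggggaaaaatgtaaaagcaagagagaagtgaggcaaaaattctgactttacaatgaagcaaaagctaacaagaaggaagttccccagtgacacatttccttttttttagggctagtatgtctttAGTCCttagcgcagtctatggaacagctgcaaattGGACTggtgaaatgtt
Med12l: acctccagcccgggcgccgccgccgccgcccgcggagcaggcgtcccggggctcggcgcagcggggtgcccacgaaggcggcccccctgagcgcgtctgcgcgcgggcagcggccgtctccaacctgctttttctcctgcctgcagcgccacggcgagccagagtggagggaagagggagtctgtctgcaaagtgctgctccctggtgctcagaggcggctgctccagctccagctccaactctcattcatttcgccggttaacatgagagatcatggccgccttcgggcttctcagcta
Cx3cr1: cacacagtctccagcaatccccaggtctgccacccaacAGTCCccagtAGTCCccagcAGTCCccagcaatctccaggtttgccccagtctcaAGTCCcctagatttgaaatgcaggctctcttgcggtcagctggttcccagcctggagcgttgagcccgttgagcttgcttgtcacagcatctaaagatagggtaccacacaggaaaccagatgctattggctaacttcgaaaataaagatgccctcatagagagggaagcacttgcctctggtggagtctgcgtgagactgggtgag
Cnp: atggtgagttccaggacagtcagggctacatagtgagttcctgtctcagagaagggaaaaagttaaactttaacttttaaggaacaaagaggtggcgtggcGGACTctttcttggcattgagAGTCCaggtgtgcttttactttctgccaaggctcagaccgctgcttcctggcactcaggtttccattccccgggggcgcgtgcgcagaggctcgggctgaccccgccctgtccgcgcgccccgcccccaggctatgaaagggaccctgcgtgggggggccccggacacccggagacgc
Of each window, the last 50 bases follow the start. P2ry12 held GGACT on its own strand 35 bases in, counted from 1 at the start. Cnp held GGACT on its own strand 149 bases before its start, outside its annotated span. Of 32851 windows, 26.1% held GGACT on the gene's own strand at any position, and 5.76% held it in these last 50 bases. Cx3cr1 held 4 matches, all before its start and on the other strand, which is that of Gm33858, whose span covers them. The P2ry12 window also held 1 match on the other strand, which is that of Med12l. The window at the Med12l start held none. On either strand 45.5% of windows held the motif. A match is a run of letters and not a mapped m6A or binding site, since the tables hold no peak positions.

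Cx3cr1, the fractalkine receptor gene (ENSMUSG00000052336), had 25, 27 and 36 peaks in cocaine libraries 1, 2 and 3, a mean of 29.3 ± 5.86 (SD, n = 3). Library 3 was high and libraries 1 and 2 were close to each other. It ranked 169 of 1049 genes in the cocaine table, above 83.1% of them. Its coefficient of variation was 19.98%, against a median of 30.2% over the 210 genes with a mean within 1.5-fold of its own. Cx3cr1 was missing from the saline table, in which every gene had at least 1 peak in each library and a mean of at least 1.33. No difference between treatments could therefore be computed. Absence was common at this level: of 115 other genes with a cocaine mean within 1.25-fold of that of Cx3cr1, 43 were in the saline table (37.4%), with a median there of 6.33 peaks.

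P2ry12, the ADP receptor gene (ENSMUSG00000036353), had 20, 18 and 24 peaks in the cocaine libraries, whereas each saline library held 3. Every cocaine library was above every saline library, the lowest by 6-fold. The means were 20.7 ± 3.06 and 3.0 peaks (n = 3 libraries each), a 6.89-fold difference, with p = 0.1 in the exact 2-sided permutation test, the smallest that 3 against 3 libraries allow. Groups without overlap in this direction were the rule, since 77.7% of the 251 genes in both tables had them. The ratio for P2ry12 was above that of 78.1% of those genes, whose median was 4.54 (interquartile range 3.0 to 6.63). The lowest listed mean was 6.33 peaks in cocaine and 1.33 in saline, so genes in both tables cleared a higher bar in cocaine. How far these unlike cutoffs set the overlap and the ratios was not tested. P2ry12 was the steadiest of the 4 genes in cocaine, with a coefficient of variation of 14.8%, and 13.04% of the 322 genes at a like level had a lower one. The spread of 0 in saline rests on 9 peaks in all.

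A difference in raw peaks cannot be told apart from the difference in library totals. The cocaine libraries held 24770 to 25528 listed peaks and the saline libraries 3720 to 3944, a ratio of mean totals of 6.57. Over the genes in both tables alone this ratio was 4.23. The number of reads behind the totals is unknown, and a share of listed peaks depends on the cutoff of each table. Per 10000 listed peaks of its library, P2ry12 had 7.83, 7.27 and 9.63 in cocaine and 7.92, 8.06 and 7.61 in saline. These values overlapped, with means of 8.25 ± 1.24 and 7.86 ± 0.234 (ratio 1.05, exact permutation p = 0.9). Per 10000 peaks in genes of both tables it had 14.4, 13.1 and 17.2 in cocaine and 9.22, 9.44 and 8.85 in saline, which did not overlap (ratio 1.63, exact permutation p = 0.1). With that denominator 17.9% of the genes in both tables had all 3 cocaine libraries higher. Of the genes in both tables edgeR tested 202, on library totals rescaled by TMM factors. Its log2 difference in share is relative to these rescaled totals and is not the plain share above. For P2ry12 this difference was 0.47 (cocaine minus saline, SE 0.46, edgeR quasi-likelihood adjusted p = 0.530), which was not called. Without TMM factors it was 0.68 (edgeR adjusted p = 0.304). In the test with TMM factors 10.4% of genes were called higher in cocaine and 17.8% lower. The filter on low counts had kept P2ry12 through its cocaine libraries, and with no filter the difference was 0.57 (SE 0.48, edgeR adjusted p = 0.483), where 8.37% of 251 genes were called higher.

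**Figure D2:**
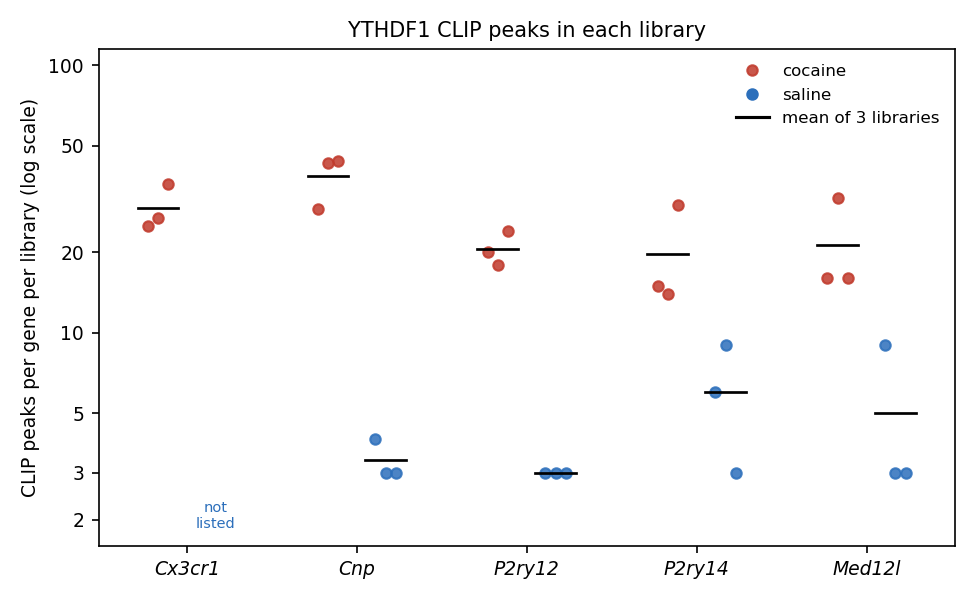
CLIP peaks per gene in each library on a log scale; red points are the 3 cocaine libraries, blue points the 3 saline libraries, and black bars their means. Cocaine values lie above saline values for Cnp, P2ry12, P2ry14 and Med12l, and Cx3cr1 has no saline values because it was not listed there.

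Med12l, the host gene (ENSMUSG00000056476), had 16, 32 and 16 peaks in the cocaine libraries and 9, 3 and 3 in the saline libraries. The treatments did not overlap, as for 77.7% of the 251 genes in both tables, but cocaine library 2 and saline library 1 stood high within their groups. The means were 21.3 ± 9.24 and 5.0 ± 3.46 peaks, a ratio of 4.27 (exact permutation p = 0.1), which was above that of 45.4% of the genes in both tables. Without saline library 1 the ratio was 7.11. In cocaine its coefficient of variation was 43.3%, higher than that of 66.7% of the 306 genes at a like level, and in saline it was 69.3%. As a share of listed peaks the order turned: 6.27, 12.9 and 6.42 per 10000 in cocaine against 23.8, 8.06 and 7.61 in saline. These overlapped, with a ratio of 0.650 (exact permutation p = 0.5). As a share of peaks in genes of both tables the ratio was 1.01, so the order depended on the denominator. Med12l did not pass the filter on low counts in edgeR. With no filter its log2 difference in share was -0.12 (SE 0.52, edgeR adjusted p = 0.933), and without saline library 1, where it passed the filter, the sign turned to 0.58 (edgeR adjusted p = 0.607). Med12l was the 1 member listed of 10 genes of the Mediator complex and its kinase module, which included Med12, Med13, Cdk8 and Cdk19. The share listed in either table over all 21900 protein-coding genes was 3.36%. Because Med12l was chosen beforehand, this count is a description and not a result about the complex.

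P2ry14, the other receptor gene listed inside Med12l, had 15, 14 and 30 peaks in the cocaine libraries against 6, 9 and 3 in those from saline. Its deposited entry carries both the symbol P2ry14 and that of the non-coding F630111L10Rik, which shares 7197 bases with it. The libraries of the treatments did not overlap (means 19.7 ± 8.96 and 6.0 ± 3.0, ratio 3.28, exact permutation p = 0.1), as for 77.7% of the 251 genes in both tables. The P2ry14 ratio was above that of 31.5% of those genes, whose median was 4.54. As a share of listed peaks the treatments overlapped, with a ratio of 0.495 (exact permutation p = 0.2). In edgeR the log2 difference in share of P2ry14 was -0.59 (SE 0.50, edgeR adjusted p = 0.442), which did not pass. P2ry14 was the 1 gene listed of 9 other purinergic and chemokine signalling genes, and Cx3cl1, the gene of fractalkine, was in neither table. This count is a description, beside 3.36% of all protein-coding genes listed in either table.

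Nested and host gene were then compared within each library. P2ry12 had more peaks than Med12l in cocaine libraries 1 and 3, fewer in cocaine library 2 and saline library 1, and 3 peaks each in the remaining saline libraries. Summed over libraries this was 62 peaks against 64 in cocaine and 9 against 15 in saline, although P2ry12 spans 14.9% of Med12l. The peaks of P2ry12 and P2ry14 together were 35, 32 and 54 in cocaine and 9, 12 and 6 in saline. They exceeded those of Med12l in 4 of 6 libraries and equalled them in the other 2. In those 4 libraries the Med12l count therefore cannot hold all peaks counted for the nested genes. How peaks were given to genes is not stated in the sources used here, and whether peaks outside a span were given to the nearest gene is unknown.

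The library with most Med12l peaks, cocaine library 2, had the fewest peaks in both P2ry12 and P2ry14 among the cocaine libraries. The saline libraries did not repeat this. Saline library 1 had most Med12l peaks there, but P2ry12 had 3 peaks in each saline library and P2ry14 had its fewest in saline library 3. The log2 ratio of P2ry12 to Med12l peaks was 0.32, -0.83 and 0.58 in cocaine and -1.58, 0.0 and 0.0 in saline. The treatments overlapped, with means of 0.03 ± 0.75 and -0.53 ± 0.92, a difference of 0.55 (exact 2-sided permutation p = 0.5). This difference fell to 0.03 without saline library 1 and was 0.98 without cocaine library 2. For P2ry14 against Med12l the difference was -0.46 (p = 0.6, exact permutation test).

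Levels of different genes were compared per kb of annotated span. In cocaine Cnp had 2.28 ± 0.494 peaks per kb, Cx3cr1 1.496 ± 0.299, P2ry14 0.506 ± 0.231, P2ry12 0.442 ± 0.0654 and Med12l 0.0682 ± 0.0295. Within every cocaine library Cnp lay above Cx3cr1, Cx3cr1 above P2ry12 and P2ry12 above Med12l, although the ranges of Cnp and Cx3cr1 over libraries overlapped. The order of P2ry14 and P2ry12 differed between libraries. In saline Cnp had 0.196 ± 0.0340 peaks per kb, P2ry14 0.154 ± 0.0772, P2ry12 0.0642 and Med12l 0.0160 ± 0.0111. Here too each library held more peaks per kb in P2ry12 than in Med12l, by 2.23-fold to 10.1-fold over all 6 libraries. The median over the 714 genes with a span was 0.390 in cocaine, so that Cnp and Cx3cr1 were above 89.1% and 82.9% of these genes, P2ry12 was near the middle and Med12l was above 17.5%. The measure rests on whole gene spans, introns included. It also depends on the cutoffs, since the lowest listed mean was 6.33 peaks in cocaine and 1.33 in saline. To be listed, a short gene therefore needs more peaks per kb than a long one. P2ry12 spans 46.7 kb and Med12l 313.0 kb, so their order per kb cannot be told apart from this effect of the cutoffs. The same limit applies to the high values of the short genes Cnp and Cx3cr1.

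**Figure D3:**
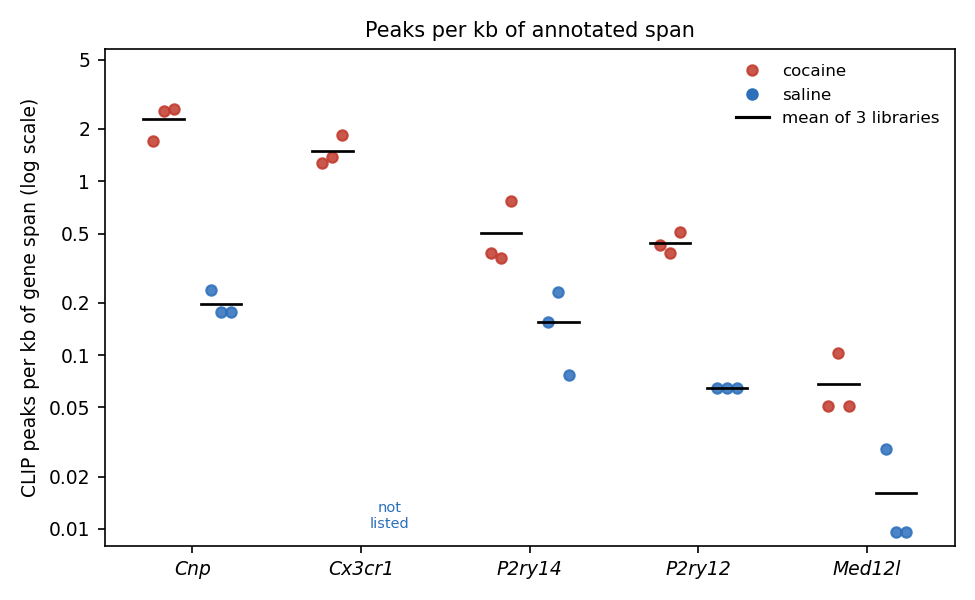
CLIP peaks per kb of annotated gene span in each library on a log scale, with red points for cocaine, blue points for saline and black bars for means. P2ry12 and P2ry14 lie above their host Med12l in both treatments, and Cnp and Cx3cr1 lie highest in cocaine.

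Cnp, the myelin phosphodiesterase gene (ENSMUSG00000006782), had 29, 43 and 44 peaks in the cocaine libraries against 4, 3 and 3 in the saline libraries. Its lowest cocaine library was 7.25 times its highest saline library. The means were 38.7 ± 8.39 and 3.33 ± 0.577 peaks, a ratio of 11.6 (exact permutation p = 0.1) that ranked 13 of the 251 genes in both tables. Of 72 other genes with a cocaine mean within 1.25-fold of that of Cnp, 32 were in the saline table (44.4%). Of these 32, 31 had a lower ratio. Over the 32 the median ratio was 5.18 and the median in saline was 6.83 peaks. The genes missing from the saline table have no ratio and are not in this comparison. Cnp ranked 110 of 1049 by peaks in the cocaine table and 265 of 449 in the saline table. The tables hold unlike sets of genes and have unlike cutoffs, so these ranks cannot be compared.

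The share of listed peaks of Cnp did not overlap between treatments, unlike those of P2ry12 and Med12l. It had 11.4, 17.4 and 17.7 per 10000 in cocaine and 10.6, 8.06 and 7.61 in saline, a ratio of 1.77 (exact permutation p = 0.1). A higher share in all 3 cocaine libraries was found in 6.37% of the genes in both tables, and a lower one in 27.9%. The gap was narrow, between cocaine library 1 and saline library 1. In edgeR the log2 difference in share was 1.22 (SE 0.48, unadjusted p = 0.0219, adjusted p = 0.0702), which did not pass the threshold of 0.05. The filter on low counts kept Cnp, like P2ry12, through its cocaine libraries, where it was high, and with no filter the difference was 1.31 (SE 0.45, edgeR adjusted p = 0.0525). Cnp passed the threshold on totals without TMM factors (log2 difference 1.43, edgeR adjusted p = 0.0319) and without cocaine library 1 (1.23, adjusted p = 0.0495), and on totals of all listed peaks it was farther from it (0.82, adjusted p = 0.239). Dnajc7, which overlaps the last 9058 bases of Cnp, had no entry to set beside it, and the lowest mean of any listed cocaine gene was 6.33 peaks.

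**Figure D4:**
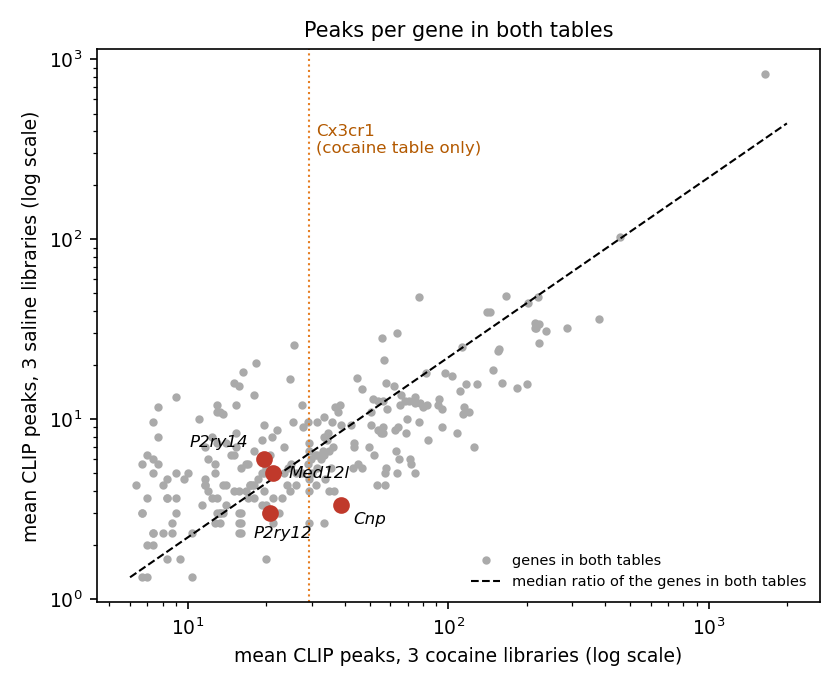
Mean CLIP peaks over the 3 cocaine libraries (horizontal) and the 3 saline libraries (vertical) for the 251 genes in both tables, on log scales, with the dashed line at their median ratio of 4.54. Cnp lies farthest below the line among the labelled genes, P2ry12 below it and P2ry14 above it, and the dotted line marks the cocaine mean of Cx3cr1, which has no saline value.

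The genes nearest to each member over its libraries were sought by Euclidean distance of log2(peaks + 1). Candidates had exactly 1 symbol and were listed in the same tables as the member. Apart from the members, no candidate was a marker of microglia or myelin on the lists above, so none could be found. For P2ry12, over 6 libraries and 167 other such genes in both tables, the nearest were the non-coding Rptoros (distance 0.606), Prox2 (0.697) and Notch3 (0.729), a Notch receptor gene. For Cnp they were Kansl1l (0.835), the non-coding Rap1gapos (0.839) and Spata6l (1.01). Rap1gapos had 28, 27 and 45 peaks in the cocaine libraries against 3, 3 and 2 in those from saline. Med12l had no neighbour as close, with Spata16 (1.20), Srek1ip1 (1.23) and 1810014B01Rik (1.38) nearest. For Cx3cr1, over the 3 cocaine libraries and 548 such genes of the cocaine table alone, they were Rph3al (0.323), Ncor1 (0.453), a nuclear receptor corepressor gene, and the non-coding Man2c1os (0.456).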

How the data were processed

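The authors deposited 2 tables with 3 library columns each, in which a value counts the CLIP peaks of a gene. A further deposited signal column, equal to the mean of those 3, served only to check them. Cutadapt, STAR and mm10 are named in the submitters' processing notes; the sources used here do not give the peak caller's settings, the handling of duplicates or any use of input. A table was assigned to its treatment by the letter c or s in its name. Repeated lines of a gene were counted once, and no value was filled in for a gene that a table lacks.

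The 251 genes in both tables were fitted with edgeR 4.0.16 (R 4.3.3; filterByExpr, TMM factors, quasi-likelihood test, Benjamini-Hochberg adjustment over the 202 genes tested, FDR 0.05; tested on simulated data). Single values were compared by exact 2-sided permutation tests (SciPy 1.17.1, Python 3.11.15). Named genes are the 4 members, listed genes that overlap or adjoin them, listed markers, and the 3 nearest genes to each member. Some genes are not reported here. Members and lists were chosen with earlier results of these data known. Alternatives were other totals, DESeq2 1.42.0, no filter, every line kept and each library left out.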

Additional observations from a re-analysis of the deposited data

How the results depend on the processing

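Peaks per 10000 listed peaks gave cocaine over saline ratios of 1.05 for P2ry12, 0.650 for Med12l and 1.77 for Cnp, against 6.89, 4.27 and 11.6 in raw peaks, so the direction for Med12l reversed. As a share of peaks in genes of both tables the ratios were 1.63, 1.01 and 2.74, again on the other side of 1 for Med12l. Leaving out a library gave raw ratios of 6.33 to 7.33 for P2ry12, 3.2 to 7.11 for Med12l and 10.8 to 13.1 for Cnp.

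In edgeR, with each library left out, log2 differences in share were 1.23 to 1.43 for Cnp, 0.53 to 0.57 for P2ry12 and -0.39 to 0.58 for Med12l, which reversed to 0.58 without saline library 1. Cnp was not tested without cocaine library 2 or 3, and P2ry12 and Med12l without any 1 of the cocaine libraries, because they did not pass the filter there. Cnp passed at 1.43 on totals without TMM factors (adjusted p = 0.0319) and at 1.23 without cocaine library 1. Its adjusted p ranged from 0.0319 to 0.239 over the alternatives in edgeR and was 0.145 in DESeq2. The median log2 difference of all tested genes was -0.02, moved to 0.19 without TMM factors and -0.47 on totals of all listed peaks. On those totals 5 genes were called higher and 52 lower, against 21 and 36, and DESeq2 called 20 and 22; without 1 library the counts were 6 to 21 higher and 17 to 28 lower. The log2 ratio of P2ry12 to Med12l differed by 0.03 to 0.98 with a library left out. Their difference per kb, nested minus host, was higher in cocaine by 0.326 (exact permutation p = 0.1), but a difference of raw peaks grows with the library totals and does not show a shift between the genes. With a mean above 6 peaks required in both tables, 0 microglia markers and 0 oligodendrocyte genes were listed in saline, against 2 and 1.

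No paired analysis was possible because the columns carry no replicate number. Exon lengths were not used here, so peaks per kb rest on gene spans. Sequencing depth is unknown, and saline values of 3 peaks leave little room to measure a difference.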
